A study of Mus musculus with 3 samples.

Results

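Genes of splenic macrophages and dendritic cells were followed in mouse spleen RNA measured against a common reference RNA. The group holds 10 genes, Adamdec1, Aif1, Fcer1g, Ctss, Ctsc, Cd83, H2-Oa, Itgax, Ccl22 and Rnase6, of the 7984 symbols named on the array, and they are represented by 12 of its 16273 probes. They were listed by name as macrophage, antigen presentation and dendritic cell genes, with their ratios in this same comparison already known, so those ratios are given as a description and no test of them is used as support. A probe belonged to a gene when the platform annotation gave it that symbol and no other. On each of 3 dual-colour arrays, which form 1 group, purchased spleen total RNA labelled with Cy5 was hybridised together with purchased UMRR (Universal Mouse Reference RNA), which combines RNA of several mouse cell lines, labelled with Cy3. Both were amplified once into cRNA before labelling. The labels give 1 catalogue product for each RNA and no strain, age, sex, treatment or number of animals, and they report no dye swap. Repeat arrays of 1 extract would make the spread between arrays a technical one, and it says nothing about other spleens.

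Macrophages of the spleen clear aged red cells and particles from the blood, and dendritic cells take up antigen, cut it into peptides and show the peptides to T cells on MHC class II molecules. The work is divided among receptors that bind antibody-coated particles and signal through an adaptor chain, lysosomal proteases that cut antigen and the invariant chain, chaperones that load peptide onto class II molecules, and surface proteins and chemokines that bring T cells into contact with the presenting cell. Several of these genes are also active in B cells, monocytes and granulocytes, which the spleen holds in large numbers.

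The array values are signed log ratios, and neither their base nor the channel in the numerator is stated. Spleen carried the red dye, and ratios are by custom written red over green, so a positive value is taken to mean that spleen was likely the higher of the RNAs. The sample titles name the reference first, which could mean the reverse. Exactly 0 was read as no measurement and made up 24.2% to 26.8% of the values of an array, which left 6077 genes with at least 1 probe measured on all 3 arrays. Across probes, Pearson's r between pairs of arrays lay between 0.952 and 0.969, and the median gene had a mean ratio of -0.03 and a standard deviation (SD) over the 3 arrays of 0.110. With limma and Benjamini-Hochberg adjustment, 70.3% of genes differed from 0 at an adjusted p under 0.05 (33.2% of all genes on the positive side and 37.1% on the negative), so a call by itself separates a gene little from the rest of the array. The ratio of a gene in whole tissue combines the share of cells that make its RNA and the RNA made per cell, and fewer cells and less RNA per cell cannot be told apart.

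Markers of several other cell types were mostly positive in the same RNA, and fibroblast and matrix markers were mostly negative. All 5 measured B cell markers were positive, with a median between 2.86 and 3.43 on the 3 arrays and Cr2 (3.91) and Ms4a1 (3.53) the highest. Of 6 T cell markers 5 were positive and 1 negative (array medians 2.47 to 2.69). All 3 measured neutrophil markers were positive (4.43 to 4.82, Mpo and Mmp9 listed at 0). The 5 red cell markers measured on every array were positive (2.49 to 2.87), and a further one, Alas2, had -0.63 on array 1 alone. Of 12 exocrine pancreas markers 11 were positive and 1 did not pass (3.91 to 3.99), led by the zymogen granule protein Gp2 at 4.80. Of 6 fibroblast and matrix markers 5 were negative and 1 positive (-1.39 to -1.17, Sparc and Col5a2 listed at 0). The part of these cells in the ratios below was not tested.

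All 33 values of the 11 measured member probes were positive, and the mean log ratios of the 10 genes ran from 0.39 to 5.69 with a median of 2.50. From the top the order was Adamdec1, Cd83, Rnase6, Aif1, H2-Oa, Ctsc, Itgax, Ctss, Fcer1g and Ccl22. Neighbours in this order were separated on every array value except for 2 pairs: the arrays of Adamdec1 and Cd83 overlapped, and so did those of H2-Oa and Ctsc. The order is one of ratios between spleen and the pool, not of RNA levels. All 10 genes were past the limma test on the positive side, against 33.2% of genes; as the members were chosen on these ratios, nothing is read from that count. Adamdec1 and Cd83 had the highest and the second highest mean of the 6077 genes, Rnase6 ranked 5 and Aif1 37, whereas 78.1% of genes lay below Ccl22. With the sign turned, as the order in the titles would have it, the same places would count from the lowest ratio upward. Of the 26 genes with a mean above 4, 3 were members.

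**Figure D1:**
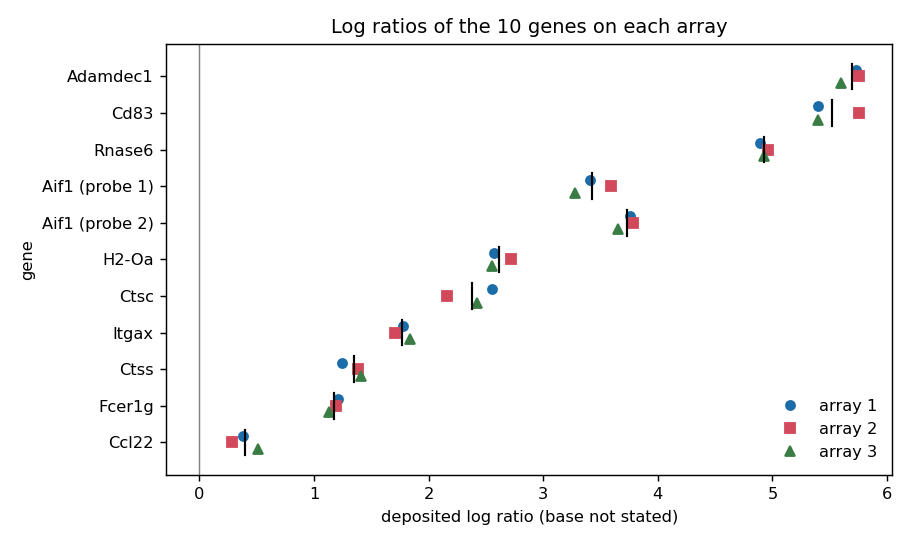
Deposited log ratio (x axis, base not stated) of the 11 measured probes of the 10 genes (y axis) on arrays 1, 2 and 3 (circles, squares and triangles), with a black bar at the mean of each probe. Every value is positive, from 0.29 for Ccl22 on array 2 to 5.75 for Cd83 on array 2.

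**Figure D2:**
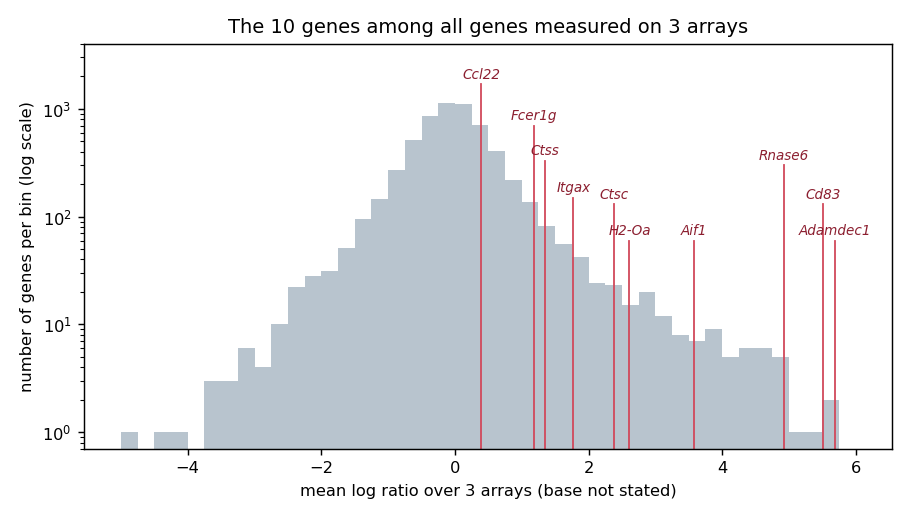
Number of genes (y axis, log scale) in each bin of the mean log ratio over 3 arrays (x axis, base not stated) for the 6077 genes measured on all arrays, with a red line at the mean of each of the 10 genes; the height of a line has no meaning. Adamdec1 (5.69) and Cd83 (5.52) lie at the right end, and Ccl22 (0.39) lies among the bulk of genes.

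The spread between arrays was small beside most of these ratios. The SD of a member had a median of 0.089, beside 0.110 for all genes. With 6 of 10 members under the SD of the median gene, the group was not set apart by its spread. Rnase6 repeated most closely, with an SD of 0.034, and 7.13% of genes had a smaller one. Cd83 (0.205) and Ctsc (0.203) were the most variable, and 83.2% and 82.8% of genes had a smaller SD. No array was high for all members: 5 had their highest value on array 2, 3 on array 3 and 2 on array 1.

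The macrophage genes of the group were Adamdec1, Aif1 and Rnase6. Adamdec1 encodes a secreted metalloprotease of the ADAM family made by mature dendritic cells and macrophages, and its single probe gave log ratios of 5.73, 5.75 and 5.60 on arrays 1 to 3. The 3 values spanned 0.15. Aif1, the calcium-binding and actin-bundling protein also known as Iba1, had 2 probes, which gave 3.41, 3.59 and 3.28 at the first and 3.76, 3.78 and 3.65 at the second. The second probe lay above the first on every array, by 0.30 on average, and their ranges did not overlap. Their mean over probes was 3.58 ± 0.11 (SD, n = 3), which would be an 11.9-fold ratio if the base is 2 and a 35.8-fold ratio in natural logs.

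Other macrophage and monocyte genes ran from -1.97 to 4.24. Of 36 symbols in the list, synonyms included, 9 had a named probe and 5 were measured on all arrays. Of those 5, 4 were positive and 1 negative, beside 33.2% and 37.1% of all genes. The median of the 5 was 0.95, beside -0.03 for all genes. Slc40a1, the iron exporter ferroportin of red pulp macrophages, had 4.35, 4.38 and 3.98 (limma adjusted p = 7.92e-08). Cyba, a subunit of the phagocyte oxidase, had a mean of 1.02 and the receptor kinase Axl, which binds dying cells, 0.95. Lgals3, the lectin galectin-3, was negative on every array at -2.13, -1.82 and -1.95 (adjusted p = 1.05e-06). The chemokine receptor Ccr2 was positive at 0.21 (adjusted p = 0.0254), a call that ended without array 1 (0.19, adjusted p = 0.131), without array 3 (0.18, adjusted p = 0.166) and with 0 kept (adjusted p = 0.0745), and its ratio was -0.38 (adjusted p = 0.00053) after the running median over 5 probe numbers on either side was subtracted. The complement gene C1qa and the receptor kinase Mertk had a value on array 3 alone, 1.32 and 2.71, Cd68 had -0.07 there, and Csf1r was listed at 0 on all arrays, so these defining macrophage genes have no replicated value here.

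Rnase6 encodes a secreted ribonuclease of the RNase A family found in monocytes and macrophages, with antimicrobial activity. Its probe gave 4.89, 4.96 and 4.92, which corresponds to 30.4-fold in base 2 or 138-fold in natural logs. Of the rest of that family only Rnase1, the pancreatic ribonuclease, had a named probe, and its 2 probes gave 4.80, 5.07 and 4.57 and 4.53, 4.50 and 4.40 (gene mean 4.64, adjusted p = 3.12e-08). Rnase6 and Rnase1 are adjacent protein-coding genes on the chromosome. Rnase1 also belongs to the exocrine pancreas list, of which 11 of 12 genes were positive. Members of this family share sequence, and binding of one gene's RNA to the other's probe was not tested. In the ADAM family, to which Adamdec1 belongs, the median of 5 measured genes was -0.14. Beside 33.2% positive and 37.1% negative among all genes, 2 of the 5 passed as positive, 2 as negative and 1 not at all. Adam25 had 0.70, the sheddase Adam10 0.51, Adam5 -0.46, Adam21 -0.29 and Adam30 -0.14 (limma adjusted p = 0.194). With 0 kept the calls of Adam10 (adjusted p = 0.0972) and Adam21 (0.079) ended.

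Fcer1g encodes the common gamma chain, the small ITAM-bearing subunit through which several Fc receptors signal. Its log ratios were 1.21, 1.19 and 1.13, a mean of 1.18 ± 0.042 (SD, n = 3). The 3 values spanned 0.08. Several other genes of the Fc receptor and ITAM list had larger ratios. The kinase Syk, which docks on phosphorylated ITAMs, had 3.20, 3.08 and 3.08 (limma adjusted p = 6.43e-08). Values of the adaptor Hcst were 2.49, 2.66 and 2.50, and the adaptor Lcp2 had a mean of 2.02. In all, 3 of the 4 measured genes of the Fc receptor and ITAM list passed as positive, beside 33.2% of all genes. The median of the 4 was 2.29. The one that did not pass was Fcgr1, the high-affinity IgG receptor that pairs with the gamma chain. The mean of its 5 probes was 0.13 (adjusted p = 0.105), and single probes ranged from -0.02 to 0.26. The highest probe passed when fitted by itself (limma adjusted p = 0.0112). Fcgr1 was called when each gene was read from its probe of the largest absolute mean (adjusted p = 0.0109). Fcgr2b, Btk and Pik3ap1 were listed at 0 on all arrays. Syk, Hcst and Lcp2 also serve B cells, T cells and NK cells.

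Ctss and Ctsc are lysosomal cysteine proteases. Ctss, which trims the invariant chain from class II molecules, had log ratios of 1.25, 1.38 and 1.41. Its mean was 1.35 ± 0.089 (SD, n = 3). It was 0.82 when the running median over 5 probe numbers on either side was subtracted, and the 7 measured probes in that stretch had a median of 0.54. Ctsc, which activates the serine proteases of granulocytes and cytotoxic cells, had 2.56, 2.16 and 2.42 at 1 probe, and its second probe was listed at 0 on all arrays. With 0 kept its mean was 1.19 in place of 2.38.

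Other lysosomal proteases and their inhibitors did not share one direction. The median of 10 measured genes was 0.11. Against 33.2% positive and 37.1% negative among all genes, 5 of the 10 passed as positive, 3 as negative and 2 not at all. Cathepsin O, Ctso, had the largest ratio at 1.69, with 1.43 and 1.95 at its 2 probes. The carboxypeptidase Prcp had 0.58 and the hexosaminidase subunit Hexa 0.39, though 1 of the 4 Hexa probes was at -0.08. The exopeptidases Ctsz (-0.49) and Ctsh (-0.48) were negative. Without moderation of the variance the calls of Ctsz and Ctsh ended (adjusted p = 0.0929 and 0.0599), and with 0 kept that of Ctsz (0.0657). Cathepsin D, Ctsd, was at -0.06 (adjusted p = 0.548) and cathepsin K, Ctsk, at -0.02 (adjusted p = 0.833). Ctsk is the direct chromosomal neighbour of Ctss and a related protease, and its arrays gave -0.01, -0.04 and -0.003. Cathepsins A and L were listed at 0. On arrays 1 and 3 alone, Cstb had -1.42 and -1.51, Lamp2 -0.60 and -0.59, and Lamp1 -0.33 and -0.005. Ctsb (0.32) and Gusb (-0.07) had a value on array 2 alone. With probes measured on at least 2 arrays, 5 of 13 genes of this list were called positive and 5 negative.

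The promoter of Ctss is shown because it holds, close to the start, a match to the interferon response core searched for, GAAA, any 2 bases, then GAAA on either strand. The sequence covers the 250 bases before the start in RefSeq build GRCm38.p6, chr3:95526536-95526785 on the plus strand, 5′ to 3′ with the match in capitals.
Ctss: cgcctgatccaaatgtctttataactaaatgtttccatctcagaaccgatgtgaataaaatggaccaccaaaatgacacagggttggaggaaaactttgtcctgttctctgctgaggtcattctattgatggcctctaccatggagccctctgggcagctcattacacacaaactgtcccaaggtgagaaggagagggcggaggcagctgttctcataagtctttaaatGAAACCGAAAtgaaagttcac
The match covers positions -21 to -12, counted from -1 at the base just before the start. The core was found in 4 of the 10 member windows and in 2.98% of 32851 promoter windows of the same length. The member windows were those of Ctss and Aif1 and overlapping ones of Rnase6 that hold the same site.

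H2-Oa and Cd83 belong to antigen presentation. H2-Oa encodes the alpha chain of H2-O, which restrains the peptide loading factor H2-M in B cells and some dendritic cells. Its probe gave 2.57, 2.71 and 2.55, a mean of 2.61 ± 0.089 (SD, n = 3). Among other MHC class II genes the data were thin: of 6 with a named probe, only Marchf1, a ubiquitin ligase that acts on class II molecules, was measured on all arrays, and its mean of -0.27 did not pass (adjusted p = 0.0911). H2-Aa, a class II alpha chain, had 0.92 and 0.84 on arrays 1 and 2 and 0 on array 3. The invariant chain Cd74 had 2.13 and 2.19 at 1 probe on arrays 1 and 3, 3.43 at another on array 3 alone, and 0 at the remaining probe. The regulators Ciita and Rfx5 were listed at 0 on all arrays. No class II chain other than H2-Oa has a value on all 3 arrays here. The part of B cells in its ratio was not tested.

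The H2-Oa promoter is shown for its X and Y boxes, the elements through which class II genes are controlled. The window is chr17:34092129-34092378 on the plus strand in the same build, and the capitals mark the X box core AGCAACA, the Y box ATTGG and matches to the ETS core AGGAAG, which reads CTTCCT on the strand shown.
H2-Oa: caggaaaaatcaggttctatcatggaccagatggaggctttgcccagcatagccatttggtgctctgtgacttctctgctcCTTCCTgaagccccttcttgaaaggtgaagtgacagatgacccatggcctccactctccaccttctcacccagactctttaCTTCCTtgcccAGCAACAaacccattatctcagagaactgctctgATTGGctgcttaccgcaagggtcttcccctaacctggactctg
The X core was in 1 member window and in 4.42% of all windows, and the Y box in 33.8% of all. An X core followed by a Y box 15 to 30 bases further on, in the direction of the gene, was present in 22 of all windows (0.067%). In H2-Oa the gap was 27 bases. The count depends on the gap allowed, so nothing is read from how rare the pattern was. A match of letters describes the window and does not show binding.

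Cd83 encodes an immunoglobulin-like surface protein of mature dendritic cells that is also made by activated B cells. Its log ratios were 5.40, 5.75 and 5.40, so array 2 stood above the other two, and the values spanned 0.36. Cd83 is known to protect class II molecules and Cd86 from the ubiquitin ligase Marchf1. The ratio of Marchf1 was -0.09, -0.05 and -0.68, a mean of -0.27 that did not pass (adjusted p = 0.0911) and was called without array 2 (-0.38, adjusted p = 0.0441). Of 4 costimulatory genes with a named probe, 2 were measured on all arrays: Cd80 was positive at 0.33 (adjusted p = 0.00255) and Cd48 negative at -0.19 (adjusted p = 0.046). Neither call held under every setting. That of Cd80 ended with a running median subtracted (0.11 and 0.08), and that of Cd48 without array 1 (-0.13, adjusted p = 0.255), without array 3 (-0.19, adjusted p = 0.139) and with each array centred (adjusted p = 0.0787). Slamf1, a receptor of lymphocytes and antigen presenting cells, had 1.52 and 1.66 on arrays 1 and 3 and 0 on array 2, and Cd1d1 was listed at 0. With probes measured on at least 2 arrays, 2 of 3 genes of this list were called positive and none negative.

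Itgax and Ccl22 mark dendritic cells. Itgax encodes the integrin alpha chain CD11c, and its log ratios were 1.77, 1.70 and 1.83. Other leukocyte integrin genes had ratios of like size: Itgb7, the beta chain of gut-homing integrins, had 1.52, 1.43 and 1.64 (adjusted p = 1.83e-06), and Itgae, the alpha chain CD103 of some dendritic and T cells, had 1.16, 1.04 and 1.30 (adjusted p = 8.66e-06). The third measured gene of that list, the widely made integrin activator Tln1, was negative at -0.32. With the running median over 5 probe numbers subtracted, Itgax was at 1.19, and nearby probes had a median of 0.59.

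Outside the group, 7 dendritic cell genes were measured and had a median of 0.31, and 5 of them passed, all as positive. Of all genes 70.3% passed, 33.2% as positive and 37.1% as negative. Clec4a2, an inhibitory C-type lectin of dendritic cells and macrophages, had 4.31, 4.28 and 3.84 (adjusted p = 1.43e-07). That ratio stood far above the next in the list, Itgae at 1.17 and Zbtb46, a transcription factor of classical dendritic cells, at 0.63. Bst2 (0.31) and the transcription regulator Id2 (0.30) were past the test. Their calls ended with 0 kept (adjusted p = 0.0879 and 0.163) and without moderation (0.117 and 0.188), that of Id2 also without array 1 (0.19, adjusted p = 0.136), and its 2 probes gave 0.61 and -0.01. Ccl17 (-0.12, adjusted p = 0.196) and Tcf4 (-0.10, adjusted p = 0.196), a regulator of plasmacytoid dendritic cells, did not pass. The 3 measured Tcf4 probes went both ways, from -0.36 to 0.26. Irf8, Sirpa, Clec10a, Dpp4 and Fscn1 were listed at 0, and Batf3 had 0.92 and 1.12 on 2 arrays.

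Ccl22 encodes a chemokine of dendritic cells and macrophages that attracts T cells through the receptor Ccr4, and it had the smallest ratio of the group. The arrays gave 0.38, 0.29 and 0.51, a mean of 0.39 ± 0.11 (SD, n = 3), or 1.31-fold in base 2 and 1.48-fold in natural logs. Ccl22 spanned 0.22 between its lowest and highest array. Its limma call ended without moderation of the variance (adjusted p = 0.0542) and against a 1.5-fold change in base 2 (adjusted p = 1). The ratio was 0.84 once the running median over 5 probe numbers was subtracted, nearby probes having a median of -0.45. Ccl22 lies in a chromosomal group with the chemokine genes Cx3cl1 and Ccl17. Cx3cl1, the membrane-bound fractalkine, is adjacent to it and was negative (-1.0, adjusted p = 1.85e-05). Ccl17, the other ligand of Ccr4, had -0.25, 0.02 and -0.11, so its arrays lay below all 3 of Ccl22. Ccl17 read -0.48 with the running median over 5 probe numbers on either side subtracted and 0.22 with that over 20.

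The Ccl22 promoter is shown because it alone among the member windows held the motif GGGACTTT, part of an NF-kB site with a flank. It covers chr8:94745434-94745683 on the plus strand in the same build, and capitals mark that motif and an ETS core match.
Ccl22: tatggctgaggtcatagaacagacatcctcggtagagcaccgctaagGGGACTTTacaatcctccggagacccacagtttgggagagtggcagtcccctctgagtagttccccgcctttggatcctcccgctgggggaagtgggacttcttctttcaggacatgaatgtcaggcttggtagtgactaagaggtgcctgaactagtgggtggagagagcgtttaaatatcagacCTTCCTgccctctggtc
The motif was in 1.21% of all windows. The ETS core, bound by the myeloid factor PU.1 among others, was in 6 of the 10 member windows and in 29.5% of all windows. Those 6 windows belonged to 5 members (Ccl22, Ctsc, Fcer1g, H2-Oa and Rnase6). Of the 10 members 8 had an entry, with 10 windows in all since Rnase6 has 3 starts, and Adamdec1 and Cd83 had none.

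Other chemokines and their receptors had a median of 0.53 over 15 measured genes, of which 9 passed as positive and 4 as negative. Among all genes 33.2% passed as positive and 37.1% as negative. Ccl6, a chemokine of macrophages and other myeloid cells, had 3.39, 3.41 and 2.60 (adjusted p = 2.98e-06). Cxcl16, a membrane-bound chemokine that also acts as a scavenger receptor, had a mean of 2.00, the lymphocyte chemokine Xcl1 1.57 and the interferon-induced Cxcl10 1.54. The thymic and gut chemokine Ccl25 was negative at -1.29 (adjusted p = 1.76e-05). Ccl12 did not pass (0.14, adjusted p = 0.15), and its 2 probes were opposed at 1.22 and -0.94. Cxcl12, Cxcl13, Cxcl11 and Cxcr4 were listed at 0.

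**Figure D3:**
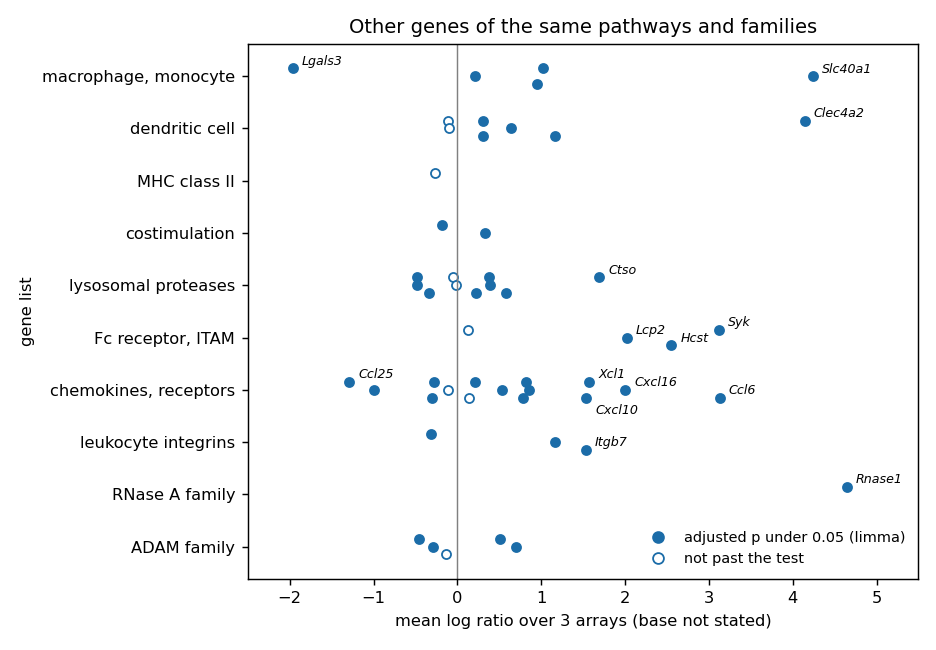
Mean log ratio over 3 arrays (x axis, base not stated) of each measured gene in 10 lists of related genes (y axis), the 10 members left out; filled points passed limma's test at an adjusted p under 0.05, open points did not, and ratios beyond 1.2 in size are named. Slc40a1, Clec4a2 and Rnase1 lie above 4, and Lgals3 lies at -1.97.

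The chromosomal neighbours of the members were examined for a shared ratio, taking the 3 protein-coding genes on either side in RefSeq order. Of 60 neighbours 18 were measured, with a median of 0.10, and limma called 6 of these positive and 4 negative. Among all genes 33.2% were called positive and 37.1% negative, so nothing is read from these counts. Besides Rnase1, the neighbours with ratios above 1 were Rab38 next to Ctsc, a small GTPase of lysosome-related organelles (1.80 ± 0.33, SD, n = 3, adjusted p = 1.19e-05), and Pycard near Itgax, the inflammasome adaptor of myeloid cells (1.68 ± 0.081, SD, n = 3, adjusted p = 1.01e-06). Cox6a2, the muscle form of a respiratory subunit, also lies near Itgax and was negative (-1.03, adjusted p = 3.67e-05). These 3 genes were named after their values were seen. The 10 genes themselves lie on 7 chromosomes, with Ctsc and Itgax, Rnase6 and Adamdec1, and H2-Oa and Aif1 sharing one each.

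**Figure D4:**
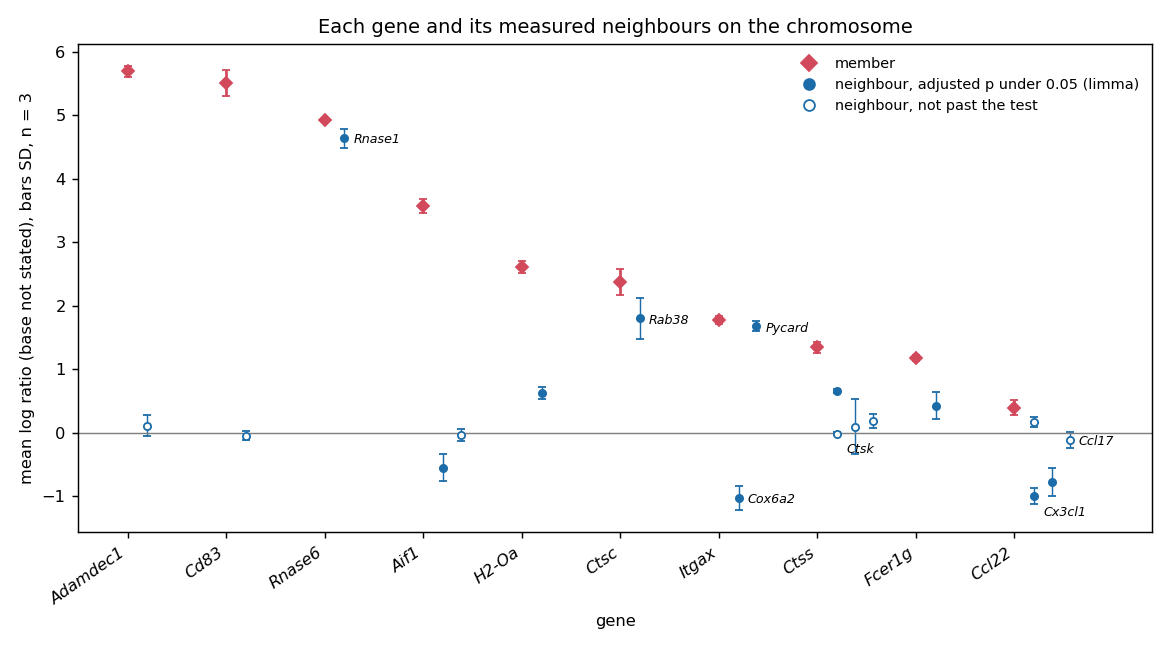
Mean log ratio (y axis, base not stated; bars show the SD over 3 arrays) of each of the 10 genes (red diamonds) and of its measured neighbours among the 3 protein-coding genes on either side (blue points, filled where limma's adjusted p is under 0.05). Rnase1, Rab38 and Pycard lie near their member, whereas Ctsk (-0.02) lies below Ctss and Cx3cl1 (-1.0) below Ccl22.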

How the data were processed

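The authors deposited 1 table of scores, signed log ratios per probe and array; no source used here gives their base, numerator, background correction, normalization or centring. Per the labels, cRNA was amplified once and spleen carried Cy5. No array intensities were analysed, so signal over background is unknown, and the number of arrays limits the precision. Values were used as deposited, an exact 0 as no measurement. Probes with 1 symbol and values on all 3 arrays were averaged per gene. Genes and probes were fitted to an intercept with limma 3.58.1 in R 4.3.3, moderated and two-sided, with Benjamini-Hochberg adjustment over the whole table and a threshold of 0.05. The fit was tested on simulated data. The members, the gene lists and the naming rule were chosen with earlier results of these data known. The rule named all members, up to 5 called genes of the largest size per list, up to 2 per marker list, and genes that did not pass where there were 3 or fewer. Motifs and chromosomal neighbours were chosen after the data were seen. Promoters come from RefSeq (GRCm38.p6). Alternatives covered zeros, centring, scaling, quantile normalization, trends along probe numbers, moderation, thresholds, probe summaries and single arrays. Figures used matplotlib 3.10.9.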

Additional observations from a re-analysis of the deposited data

How the results depend on the processing

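No member changed sign under the 16 alternatives, and only the call of Ccl22 ended, without moderation (adjusted p = 0.0542) and against a 1.5-fold change (adjusted p = 1). Values moved by more than the SD in 15 of 160 cases, and by over 1.5 times for Ctsc with 0 kept (1.19), and for Ctss (0.82) and Ccl22 (0.84) with the running median over 5 probe numbers subtracted. Without moderation of the variance 4609 probes and 2770 genes were called, and against a 1.5-fold change in base 2 there were 2104 and 1208. Leaving out each array gave 6287 to 7395 probes and 3660 to 4151 genes. Counts of called list genes moved as follows. Without moderation 3 dendritic cell, 5 lysosomal, 2 ADAM and 1 costimulatory genes were called, and against a 1.5-fold change 2 dendritic cell, 1 lysosomal, 8 chemokine, 0 ADAM and 0 costimulatory genes. With 0 kept 2 ADAM genes and 1 costimulatory gene were called, and with at least 2 arrays 2 MHC class II genes, as more genes were tested. The costimulatory count was 1 with arrays centred, at an adjusted p under 0.01 and with the probe of the largest absolute mean, 0 with either running median, and 1 to 2 leaving out each array; the MHC class II count was 0 to 1 leaving out each array. With the running median over 5 probe numbers Ccr2 (-0.38) and Cd48 (0.092) changed sign, and with that over 20 Ccr2 (-0.029), Ccl17 (0.22) and Ctsk (0.13) did; the cause was not tested. No paired analysis was possible because the arrays form 1 group.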
